A study of Mus musculus with 2 samples.

Results

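The genes described here are 55 genes of the cell division cycle, chosen by symbol out of the 56694 genes in the count tables. They comprise 21 genes used around DNA replication, called S genes, and 34 genes used around mitosis, called G2/M genes, and all 55 symbols were found. The data were 2 single-cell RNA libraries of back skin from mice at postnatal day 2, made from epidermal sheets taken off with collagenase and then dissociated with trypsin. The Gli2EKO library came from K14Cre tg; Gli2 fl/fl mice, in which the keratin 14 promoter drives Cre recombinase in keratinocytes of the epidermis and deletes Gli2, a transcription factor that carries the Hedgehog signal. The control library has the genotype label WT, and the controls of the study were floxed littermates that lacked Cre. All mice were on a C57BL/6N background. There was 1 library per genotype, and the number of mice in a library was not given in the sources used here. No difference between the genotypes could therefore be tested, and every interval below is a 95% interval for counting error only.

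A cell that commits to division loads the MCM helicase onto its DNA, and E2F factors switch on the genes of the helicase, of the sliding clamp Pcna and of the nucleotide supply. Later the MuvB complex, with B-Myb and Foxm1, switches on mitotic cyclins, kinetochore proteins and spindle motors, and the anaphase promoting complex removes several of these as mitosis ends. In skin, division is known from the basal layer of the interfollicular epidermis (IFE) and from the matrix at the base of the growing hair follicle, whereas suprabasal keratinocytes leave the cycle and differentiate.

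Some promoters of the members hold the elements through which these programmes are known to act, and the promoters of 2 G2/M genes and 2 S genes are shown because they hold them. Each is the 250 bases before the start of the canonical transcript in GRCm39, read 5′ to 3′ on the strand of the gene. Capitals mark the CHR element TTTGAA, the CCAAT box and the E2F sites TTTCCCGC and TTTGGCGC, searched on both strands and each counted on its own, whether or not matches overlapped.
Ccnb2 (chr9:70328875-70329124, minus strand): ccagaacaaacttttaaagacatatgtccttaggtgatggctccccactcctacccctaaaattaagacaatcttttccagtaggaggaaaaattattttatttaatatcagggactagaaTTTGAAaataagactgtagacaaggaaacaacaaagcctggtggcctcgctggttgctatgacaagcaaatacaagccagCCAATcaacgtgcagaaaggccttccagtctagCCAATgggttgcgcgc
Top2a (chr11:98915042-98915291, minus strand): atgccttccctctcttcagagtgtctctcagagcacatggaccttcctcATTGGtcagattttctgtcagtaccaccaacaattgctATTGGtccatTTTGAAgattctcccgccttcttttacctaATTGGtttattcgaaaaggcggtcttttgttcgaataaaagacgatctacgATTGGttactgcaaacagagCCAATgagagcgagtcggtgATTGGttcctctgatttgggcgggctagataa
Mcm5 (chr8:75835890-75836139, plus strand): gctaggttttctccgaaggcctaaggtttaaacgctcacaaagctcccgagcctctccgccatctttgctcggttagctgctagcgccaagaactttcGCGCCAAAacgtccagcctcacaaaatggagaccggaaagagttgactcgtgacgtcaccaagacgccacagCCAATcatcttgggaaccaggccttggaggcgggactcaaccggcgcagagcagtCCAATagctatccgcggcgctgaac
Mcm6 (chr1:128287453-128287702, minus strand): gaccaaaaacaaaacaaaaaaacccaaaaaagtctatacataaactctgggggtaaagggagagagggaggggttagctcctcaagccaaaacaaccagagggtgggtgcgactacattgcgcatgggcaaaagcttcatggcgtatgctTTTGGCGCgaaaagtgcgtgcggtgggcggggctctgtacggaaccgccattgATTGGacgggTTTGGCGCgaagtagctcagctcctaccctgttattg

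A CHR element stood in 9 of the 34 G2/M promoters (26.5%) and in 1 of the 21 S promoters (4.76%), against 15.6% of the promoters of 21770 protein-coding genes. A CCAAT box stood in 52.9% of the G2/M promoters and 52.4% of the S promoters, against 36.5% of all. Both elements were found together in 8 G2/M promoters (23.5%) and in 6.06% of all promoters. An E2F site was found in 3 S promoters (14.3%), those of Mcm4, Mcm5 and Mcm6, in 0 G2/M promoters and in 1.62% of all. None of these letters stood in 10 S and 15 G2/M promoters, those of Pcna and Mki67 among them. A match describes the sequence and is not a measured site.

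The control table held 6326 cell barcodes with 71021773 UMIs (unique molecular identifiers, each standing for a counted mRNA molecule), and that of Gli2EKO held 4296 barcodes with 48866478 UMIs. The libraries shared 0 barcodes. After filtering, 3319 control and 2301 Gli2EKO keratinocytes were kept. The tissue label is epidermis, yet 670 and 496 fibroblast-like and 194 and 151 dermal papilla-like cells were among the other cells. Gli2 was at 83.3 and 84.9 CPM (UMIs of a gene scaled to 1000000 UMIs) in control and Gli2EKO keratinocytes. The counts come from 3′ ends, and which exons are floxed was not given in the sources used here, so this level does not check the genotype. Gli1, a known target of the Hedgehog signal, was at 22.0 and 12.5 CPM in keratinocytes, a log2 ratio of -0.82 (-0.99 to -0.66), and at 43.9 and 51.4 CPM in the other cells. Ptch1, another target, was at 176 and 116 CPM in keratinocytes and at 388 and 407 CPM in the other cells.

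Each cell was thinned at random to 5000 UMIs, so that all cells were compared at the same depth, and shallower cells were left out (327 control and 198 Gli2EKO keratinocytes). A cell with at least 5 UMIs over the 34 G2/M genes was called G2/M-positive. A cell with at least 5 UMIs over the 21 S genes and fewer than 5 over the G2/M genes was called S-only, and the rest negative. Cells with 3 to 7 G2/M UMIs, near that limit, were 607 of 2992 control and 342 of 2103 Gli2EKO keratinocytes.

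Genes that took no part in these calls followed them in both libraries. Of 67 other mitosis genes, 66 were at least 1.5-fold higher in G2/M-positive than in negative keratinocytes in each library, with median log2 ratios of 4.30 in control and 4.40 in Gli2EKO. Of all genes but the members, 17.5% were that much higher in control and 22.2% in Gli2EKO. Of 31 other replication genes, 30 were at least 1.5-fold higher in S-only than in negative cells in each library, against 15.8% and 22.9% of all genes. Their median log2 ratios were 2.46 in control and 2.60 in Gli2EKO. In G2/M-positive cells 30 of them also passed 1.5-fold in each library, with higher medians of 2.87 and 2.99. Of the 67 other mitosis genes, 44 in control and 53 in Gli2EKO passed it in S-only cells. The calls therefore do not separate the phases, and a G2/M-positive cell may be in S phase. Foxm1 was at 35.1 CPM in G2/M-positive and 0.744 CPM in negative control cells, and at 33.9 and 1.04 CPM in Gli2EKO.

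The inhibitors of the cyclin-dependent kinases split between the states. Cdkn1a (p21), which holds cells out of the cycle, was at 310.2 CPM in negative and 105 CPM in G2/M-positive control cells, and at 356 and 114 CPM in Gli2EKO. Cdkn2c was higher in the G2/M-positive cells, at 6.08 CPM in negative and 39.1 CPM in G2/M-positive control cells, and at 4.605 and 45.1 CPM in Gli2EKO. These levels, like the comparisons before them, pool all keratinocyte classes. The classes differ in their shares of positive cells, so class and state cannot be told apart here. G2/M-positive cells held more RNA, with medians of 15218 UMIs per cell in control and 15554 in Gli2EKO before thinning. Cells removed for a high doublet score were G2/M-positive in 64.7% in control and 55.8% in Gli2EKO, against 43.6% and 37.4% of all cells kept.

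Among the 11 keratinocyte classes with at least 50 cells in each library, the share of G2/M-positive cells was highest in the matrix and lowest in the suprabasal layer. Below that size were the cells led by Sema3a, Cdh13 and Tox and the sebaceous gland-like cells. The latter were at 11.6% (3.89 to 25.1) of 43 control and 7.69% (0.946 to 25.1) of 26 Gli2EKO cells. Classes are clusters of cells, named from marker genes where these allowed it and otherwise by leading genes, and keratinocytes were clustered without the members and the genes correlated with them. Of matrix/progenitor-like cells, 94.4% (91.7 to 96.5) of 396 control and 85.2% (78.3 to 90.6) of 142 Gli2EKO cells were G2/M-positive. Inner root sheath-like cells, which surround the growing hair, were at 76.7% (70.1 to 82.5) and 75.6% (64.6 to 84.7). Upper follicle-like cells were at 60.8% (53.3 to 67.8) in control and 78.0% (70.3 to 84.5) in Gli2EKO. Their interval lay below that of the inner root sheath in control and overlapped it in Gli2EKO.

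In control the middle of the range was held by 5 follicle classes. The cells led by Tagln, Acta2 and Flrt2 were at 52.9% and 53.1%, those led by Spon1, Fndc1 and Sfrp1 at 51.0% and 49.2%, and those led by Aldh3a1, Ncam1 and Nfatc1 at 48.7% and 54.6%. Companion layer-like cells were at 43.3% (36.4 to 50.3) and 31.8% (23.3 to 41.4), and the cells led by S100a3, Gpnmb and the hair keratin gene Krt35 at 41.5% and 44.6%. Neighbours in this order had overlapping intervals in control. In Gli2EKO the intervals of the cells led by Aldh3a1 (45.7 to 63.4) and of companion layer-like cells were separate. Companion layer-like cells there also had a lower share than IFE basal-like cells, with overlapping intervals. IFE basal-like cells were at 36.8% (31.8 to 42.1) and 36.5% (32.5 to 40.8), and ORS/SC-like cells, with markers of the outer root sheath and stem cells, at 29.4% and 28.9%. IFE suprabasal-like cells were at 13.9% (9.57 to 19.2) and 11.9% (8.49 to 16.0). Within these keratinocyte classes the libraries had separate intervals only in the matrix/progenitor-like and upper follicle-like classes.

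**Figure D1:**
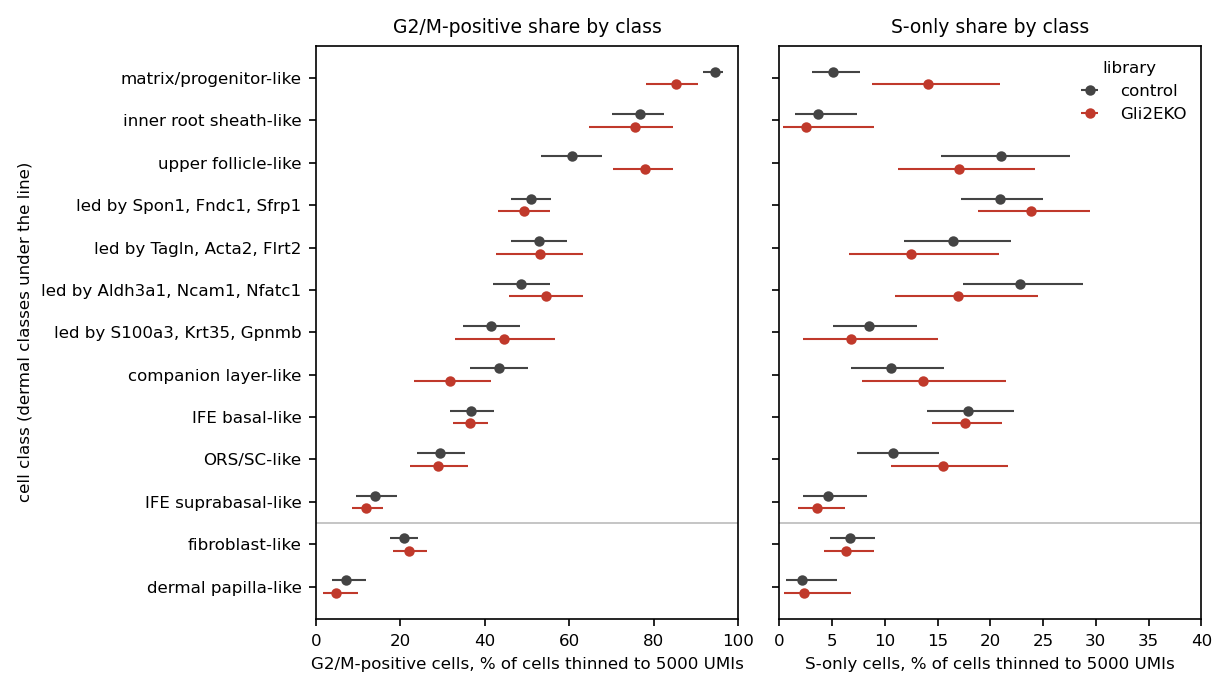
The panels plot G2/M-positive cells (left) and S-only cells (right) in percent of cells thinned to 5000 UMIs, for 11 keratinocyte classes and, under the line, 2 dermal classes. Points are the control (dark grey) and Gli2EKO (red) library and bars are exact 95% intervals for counting error. The G2/M bars are apart in the matrix/progenitor-like class (94.4% and 85.2%) and, in the other direction, in the upper follicle-like class (60.8% and 78.0%).

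S-only cells had another distribution. In control they were most frequent in the cells led by Aldh3a1 (22.8%), upper follicle-like cells (20.97%) and the cells led by Spon1 (20.9%), and in Gli2EKO these were at 16.9%, 17.0% and 23.9%. IFE basal-like cells were at 17.8% and 17.6%. S-only cells were least frequent in inner root sheath-like cells, at 3.63% and 2.56%. The S-only call excludes G2/M-positive cells, so a class with a high G2/M-positive share leaves few cells for it.

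The number of G2/M UMIs per cell separated the classes further. Positive cells had median G2/M UMI counts of 29 and 22 in the matrix/progenitor-like class and of 35.5 and 32 in the IFE basal-like class. Droplet libraries carry free RNA, which gives UMIs to cells that do not express a gene. Dermal papilla-like cells, known as a non-dividing signalling centre of the follicle, were positive in 7.10% and 4.72%, with medians of only 6 and 5.50 G2/M UMIs, at median depths of 7933 and 6580 UMIs. Whether UMIs at this level came from free RNA was not tested. At equal depth, 27.3% of the dermal papilla-like cells had 0 G2/M UMIs in control and 48.0% in Gli2EKO. The same direction was seen in fibroblast-like (25.2% and 35.2%) and IFE suprabasal-like cells (31.0% and 37.5%). The part of free RNA in the differences between the libraries was not tested.

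**Figure D2:**
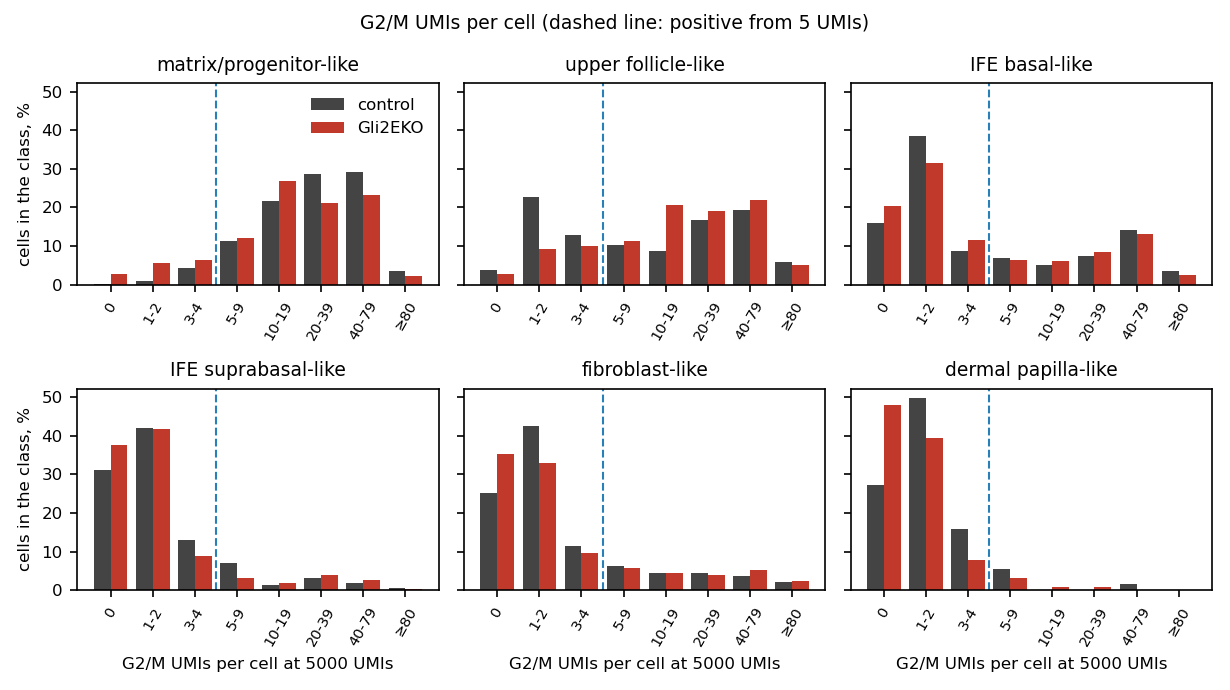
Bars give the share of a class, in percent of its cells, by G2/M UMIs per cell after thinning to 5000 UMIs, in the control (dark grey) and Gli2EKO (red) library, and the dashed line marks the limit of 5 UMIs. Matrix/progenitor-like cells lie mostly right of the line and dermal papilla-like cells mostly left of it, with 27.3% of the control and 48.0% of the Gli2EKO dermal papilla-like cells at 0.

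Gene by gene, nearly all members shared the class with the lowest level, while the highest class differed between them. Over the 11 keratinocyte classes, the level was lowest in IFE suprabasal-like cells for 55 of 55 members in control and 54 in Gli2EKO, Gins2 of the helicase being the exception. In control, 38 members were highest in matrix/progenitor-like cells (17 S and 21 G2/M genes), 9 in upper follicle-like and 8 in inner root sheath-like cells. In Gli2EKO, 25 were highest in matrix/progenitor-like, 22 in upper follicle-like and 1 in inner root sheath-like cells. The highest class was the same in both libraries for 28 of 55 members. The same ranks over all genes are not given here, so these counts are not shown to be particular to the members.

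Levels in matrix/progenitor-like, upper follicle-like, inner root sheath-like, IFE basal-like and IFE suprabasal-like cells, in that order, are given for 2 S and 2 G2/M genes. Mcm5, a subunit of the helicase, was at 114, 92.4, 62.7, 44.1 and 12.7 CPM in control and at 124, 118, 59.4, 52.0 and 9.77 CPM in Gli2EKO. Pcna, the clamp that holds DNA polymerases on their template, was at 358, 277, 224, 164 and 72.6 CPM in control and at 334, 295, 214, 157 and 64.7 CPM in Gli2EKO. Both S genes kept this order of the 5 classes in both libraries. Mki67, which coats mitotic chromosomes and encodes the proliferation marker Ki-67, was at 910.2, 659, 869, 428 and 88.8 CPM in control and at 559.6, 529, 457, 288 and 73.9 CPM in Gli2EKO. Top2a, the topoisomerase that untangles sister chromatids, was at 930.5, 753, 850.4, 517 and 73.6 CPM in control and at 717, 818, 524, 406 and 92.9 CPM in Gli2EKO. Mki67 was lower in Gli2EKO in each of the 5 classes, whereas Top2a was lower in 3 of them and highest in the upper follicle-like class in Gli2EKO.

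**Figure D3:**
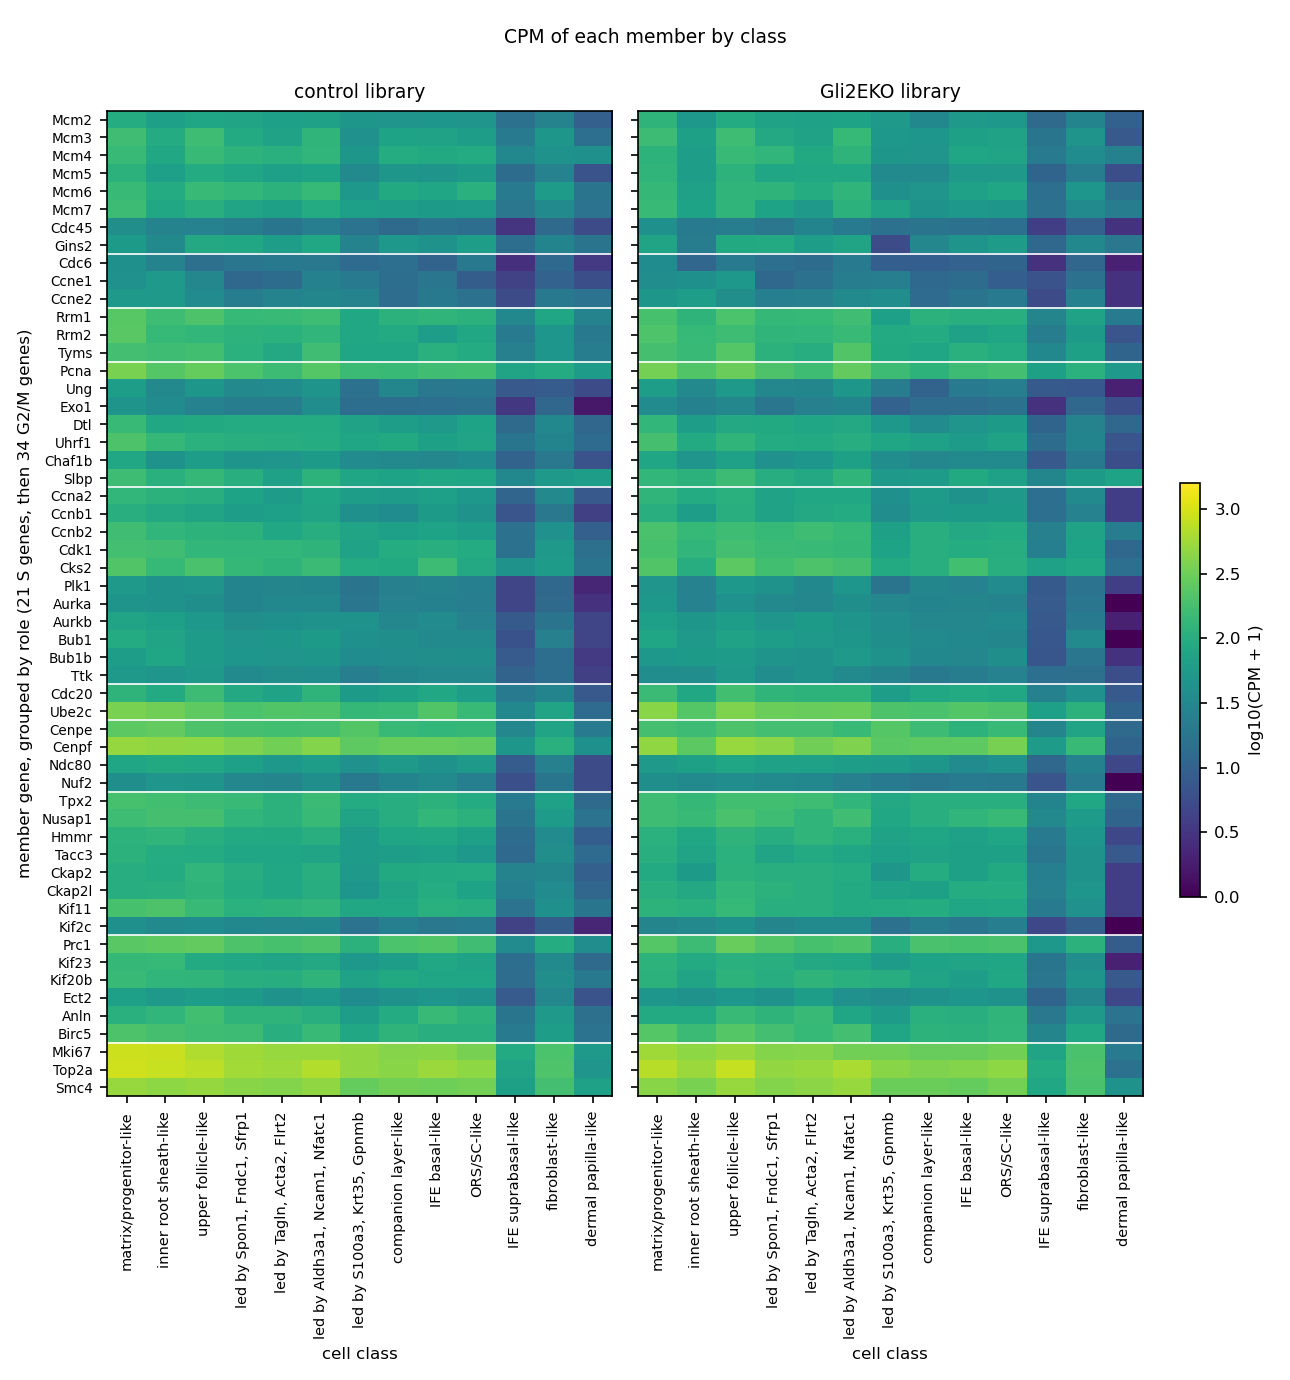
Rows are the 55 members grouped by role, with the 21 S genes on top, columns are cell classes, and colour is log10 of CPM + 1 in the control (left) and Gli2EKO (right) library. Every member is lower in the IFE suprabasal-like and dermal papilla-like columns than in the matrix/progenitor-like column in both libraries.

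Over all keratinocytes, the Gli2EKO library held a lower share of G2/M-positive cells. They were 50.9% (49.1 to 52.7) in control (1523 of 2992 cells) and 43.0% (40.9 to 45.2) in Gli2EKO (905 of 2103), a ratio of 0.845 (0.778 to 0.919). Without thinning, 69.4% and 59.4% of the cells had at least 5 G2/M UMIs. S-only cells were 13.3% (12.1 to 14.5) and 14.3% (12.8 to 15.9), with overlapping intervals. Summed over the cells, the G2/M genes were at 4298 CPM in control and 3553 CPM in Gli2EKO, a log2 ratio of -0.27 (-0.29 to -0.26). The S genes were at 1537 and 1258 CPM, a log2 ratio of -0.29 (-0.31 to -0.27). The intervals of summed levels count UMIs and leave out the spread between cells and between mice.

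The libraries also differed in their cells. The IFE classes, with lower shares of dividing cells, were 17.5% of the control and 38.2% of the Gli2EKO keratinocytes. Within the IFE, G2/M-positive cells were 28.1% (24.5 to 32.0) in control and 27.5% (24.5 to 30.6) in Gli2EKO, and within the follicle classes they were 56.3% (54.3 to 58.2) and 53.6% (50.8 to 56.4). With the Gli2EKO clusters weighted to the proportions of the control, the share was 50.3%, a ratio of 0.987 to control, and the log2 ratios of the summed genes were -0.082 for G2/M and -0.069 for S genes. Fewer follicle cells in the skin and fewer follicle cells recovered from it cannot be told apart.

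In matrix/progenitor-like cells nearly all cells were positive for a member set in both libraries, but S-only cells were more frequent in Gli2EKO. They were 5.05% (3.11 to 7.69) in control and 14.1% (8.82 to 20.9) in Gli2EKO, a ratio of 2.79 (1.42 to 5.46). Cells positive for either set were 99.5% and 99.3%, so the S-only share was nearly the remainder of the G2/M-positive share. The S-only ratio therefore restates the difference in the G2/M-positive share and is not a second result. With the limit at 3 UMIs in place of 5 the ratio was 6.14, and at 10 UMIs it was 1.63. The ratio of the G2/M-positive share was 0.902 (0.729 to 1.11). Of the 2 matrix clusters, the larger had 93.5% and 84.0% G2/M-positive cells, and the smaller 98.6% of 71 control and 100% of 11 Gli2EKO cells. At least 1.5-fold lower were 2 of 55 members, Mki67 and Kif11, against 8.61% of all genes.

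In upper follicle-like cells the direction was the opposite. Cells positive for either set were 81.7% (75.4 to 87.0) in control and 95.0% (90.04 to 97.98) in Gli2EKO. The ratio of the G2/M-positive share was 1.28 (0.979 to 1.68). The intervals of this ratio and of that in the matrix/progenitor-like class include 1, although the binomial intervals of the shares are separate. The median depths were 13382 and 15575 UMIs. Cells with 1 or 2 G2/M UMIs were 22.6% of the class in control and 9.22% in Gli2EKO. At least 1.5-fold higher were 2 of 55 members, against 2.94% of all genes: Ccne1, the cyclin of entry into S phase (29.4 and 49.3 CPM), and Ube2c (250.3 and 377 CPM).

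In inner root sheath-like cells the shares of positive cells had overlapping intervals, yet positive cells held fewer G2/M UMIs, with medians of 32 in control and 22 in Gli2EKO. The summed G2/M genes were at 6306 and 4209 CPM, a log2 ratio of -0.58 (-0.63 to -0.54). At least 1.5-fold lower were 12 of 34 G2/M genes and 1 S gene, Cdc6, against 10.4% of all genes. Among them were Mki67 (869 and 457 CPM), Cenpf of the kinetochore (466 and 249 CPM) and Kif11, the motor that separates the spindle poles (199 and 108 CPM). Ccnb2, a mitotic cyclin, was the only G2/M gene with a higher level in Gli2EKO (128 and 138 CPM).

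In IFE suprabasal-like cells 9 of the 34 G2/M genes and Ccne1 were at least 1.5-fold higher in Gli2EKO, against 3.34% of all genes. Levels were low in this class, as for Ccne1 (3.31 and 5.67 CPM), Plk1 (3.70 and 7.08 CPM) and Aurka (3.70 and 7.37 CPM). Genes this low can reach the limit of 50 UMIs through the library where they are higher, which can raise such a count. Ccnb1, a mitotic cyclin, was at 6.04 and 13.9 CPM, Ube2c at 30.2 and 63.3 CPM and Nusap1, which bundles spindle microtubules, at 16.0 and 31.2 CPM. Positive cells of this class had medians of 11 G2/M UMIs in control and 25 in Gli2EKO. Lor, which encodes the main protein of the cornified envelope, was at 6414 and 5148 CPM in G2/M-positive and negative control cells and at 14.6 and 235 CPM in those of Gli2EKO, so that markers of the outer layers differed in this class as well. Their part in the difference was not tested.

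Over all keratinocytes 51 of 55 members had a lower level in Gli2EKO (21 of 21 S and 30 of 34 G2/M genes), against 66.2% of the 15614 genes with at least 50 UMIs. The median log2 ratio was -0.30 for the S genes, -0.26 for the G2/M genes and -0.14 for all genes. At least 1.5-fold lower were 2 members, against 9.78% of all genes, and 0 were that much higher, against 4.23%.

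At the lower end, Mki67 was at 520.5 and 302 CPM, a log2 ratio of -0.78 (-0.82 to -0.75). Cdc6, which helps to load the helicase at origins, was at 17.3 and 11.3 CPM, a log2 ratio of -0.61 (-0.79 to -0.43). Kif11 was at 113 and 77.2 CPM, a log2 ratio of -0.54 (-0.61 to -0.48). Mki67 was the member with the lowest ratio and was below control in all 11 keratinocyte classes. At the higher end, Cks2, a small partner of the cyclin-dependent kinases, was at 130.2 and 143 CPM, a log2 ratio of 0.14 (0.080 to 0.19). Ube2c, the ubiquitin-conjugating enzyme of the anaphase promoting complex, was at 202 and 219 CPM, a log2 ratio of 0.12 (0.077 to 0.17). Ccnb2 was at 89.9 and 97.4 CPM, a log2 ratio of 0.11 (0.048 to 0.18), and was above control in 10 of the 11 classes. Top2a (562 and 413 CPM, log2 ratio -0.45), Pcna (197 and 169 CPM, -0.22) and Mcm5 (62.3 and 56.2 CPM, -0.15) lay between these. With the Gli2EKO clusters weighted to the control proportions, 36 members were below 0, the medians were -0.040 for S and -0.064 for G2/M genes, and 0 passed 1.5-fold. The weighted share over all genes is not given here, so these counts are not shown to be particular to the members. Mki67 was then the lowest at -0.54 and Ccnb2 the highest at 0.35.

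**Figure D4:**
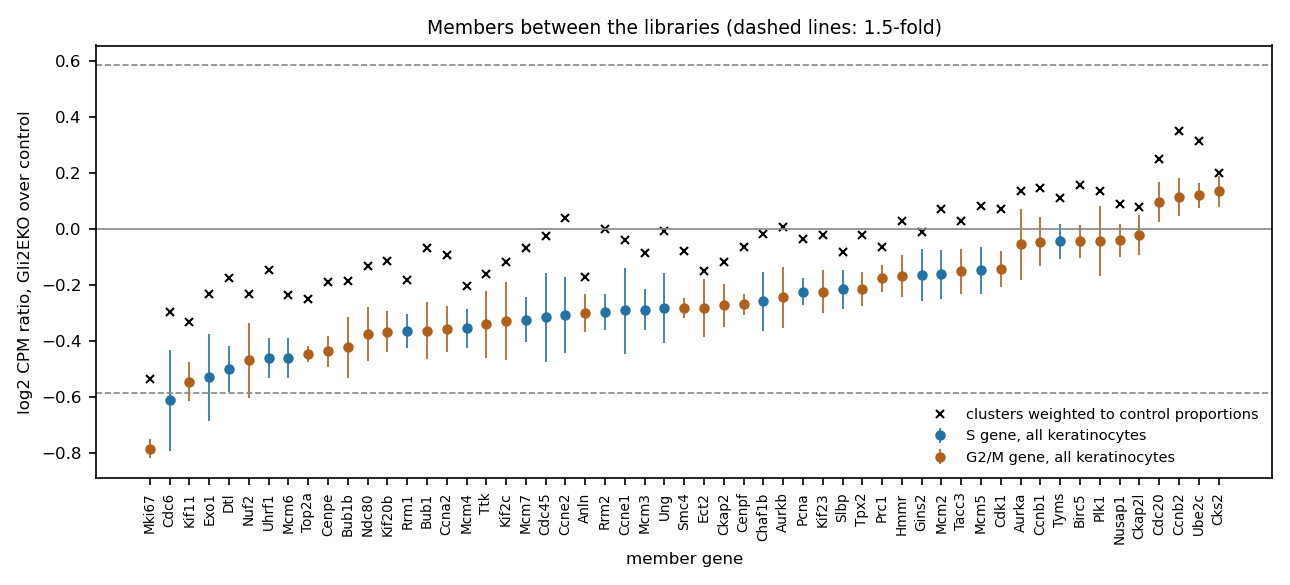
Points are the log2 ratio of CPM, Gli2EKO over control, of each member over all keratinocytes, with 95% intervals for counting error, in blue for S and brown for G2/M genes, and crosses are the ratios with Gli2EKO clusters weighted to control proportions. The points of 51 members lie below 0 and those of Mki67 and Cdc6 below the dashed line of 1.5-fold, while the crosses run from -0.54 for Mki67 to 0.35 for Ccnb2.

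By role, the summed level within the follicle classes was lowest relative to control for the 3 genes of chromosome structure, Mki67, Top2a and Smc4, at 1656 and 1336 CPM (log2 ratio -0.31, -0.33 to -0.29). It was highest for Cdc20 and Ube2c, the 2 partners of the anaphase promoting complex, at 316 and 394 CPM (log2 ratio 0.32, 0.27 to 0.36). The 11 cyclins and kinases were at 768 and 822 CPM (log2 ratio 0.098), the 8 helicase genes at 635 and 603 CPM (log2 ratio -0.075) and the 3 genes of nucleotide supply at 412 and 407 CPM (log2 ratio -0.018). Within the IFE the same roles stood at the ends, with log2 ratios of -0.30 and 0.18. In the follicle classes Mki67 was the only member at least 1.5-fold lower (600.3 and 399.8 CPM), against 5.68% of all genes.

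The members at these ends also differed in transcript length. The canonical transcripts of Mki67 (10270 bases), Top2a (5247 bases) and Kif11 (4871 bases) are long and those of Cks2 (692 bases), Ube2c (967 bases) and Ccnb2 (1576 bases) short. Over the 55 members, log2 length and log2 ratio had Pearson's r of -0.61 and Spearman's rho of -0.51 within the follicle classes, and of -0.48 and -0.46 within the IFE. These describe genes of the same pair of libraries, which are not independent replicates. All genes showed the trend too, with rho of -0.39 over 12476 protein-coding genes in the follicle classes. Genes under 2000 bases had a median log2 ratio of 0.12 there and genes of 6000 bases or more -0.20, and the members of these lengths had medians of 0.092 (10 members) and -0.26 (4 members). In fibroblast-like cells the medians of all genes were 0.15 and -0.13. Cenpf, the longest with 11210 bases, had a log2 ratio of -0.043 in the follicle classes, and Mki67 one of -0.59. The part of length in the members' differences was not tested.

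**Figure D5:**
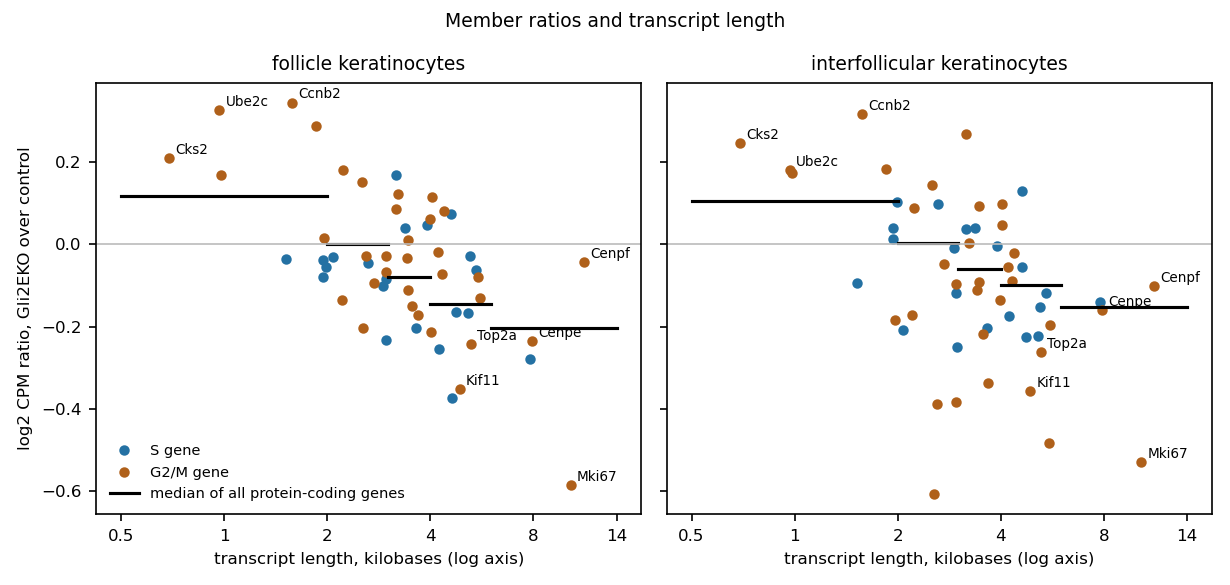
Points are members by canonical transcript length in kilobases (log axis) and log2 ratio of CPM, Gli2EKO over control, in follicle (left) and interfollicular (right) keratinocytes, and black lines are medians of all protein-coding genes in 5 ranges of length. The lines go from 0.12 to -0.20 on the left and from 0.10 to -0.15 on the right, and the short members Cks2, Ube2c and Ccnb2 lie above 0 in both panels.

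Other genes of the cycle had similar values over all keratinocytes. Of 31 other replication genes 31 were below control, against 66.2% of all genes, and Mcm10 was at least 1.5-fold lower (23.3 and 14.5 CPM), against 9.78% of all genes. Of 67 other mitosis genes 58 were below control and 2, Neil3 and Ncapg, were at least 1.5-fold lower, against the same shares of all genes. Within the follicle classes the median log2 ratios of these lists were -0.10 and -0.0042, against -0.067 for all genes. Of the regulators, Foxm1 was at 19.96 and 16.1 CPM (log2 ratio -0.31), Mybl2, which encodes B-Myb, at 19.0 and 15.2 CPM (-0.32) and E2f1 at 28.6 and 21.8 CPM (-0.39).

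Upstream of the members, the G1 cyclin Ccnd1 was at 534 and 328 CPM over all keratinocytes, a log2 ratio of -0.70 (-0.74 to -0.67), and had a log2 ratio of -0.36 within the follicle classes. Ccnd2 was at 1282 and 1099 CPM (-0.22) and Ccnd3 at 52.5 and 58.4 CPM (0.15). Of the inhibitors, Cdkn1a was at 169.5 and 209 CPM (0.30), Cdkn1b at 81.4 and 59.3 CPM (-0.46) and Cdkn1c, past 1.5-fold, at 10.4 and 16.2 CPM (0.63). Of 12 genes known to respond to tissue dissociation, 3 were at least 1.5-fold higher in Gli2EKO, against 4.23% of all genes: Hspa1a (685 and 1082 CPM), Hspa1b (643 and 1051 CPM) and Dnajb1 (205 and 346 CPM). Their part in the members' differences was not tested.

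Class markers in G2/M-positive cells, compared with negative cells of the same class, went in different directions by class, library and gene. In inner root sheath-like cells 6 of 6 markers were lower in positive cells of each library, in companion layer-like cells 5 of 6, in ORS/SC-like cells 6 of 7, in upper follicle-like cells 5 of 7 and in IFE basal-like cells 6 of 8. In matrix/progenitor-like cells 3 of 8 were lower in control and 5 in Gli2EKO. That class had only 2 negative cells in control and 1 in Gli2EKO, so its counts do not compare the libraries. In IFE suprabasal-like cells 7 of 16 were lower in control and 16 in Gli2EKO, with 30 and 37 positive cells. Negative inner root sheath-like cells were 38 in control and 17 in Gli2EKO. In inner root sheath-like cells Tchh, which encodes trichohyalin of the mature sheath, was at 121 and 5825 CPM in G2/M-positive and negative control cells and at 224 and 7086 CPM in Gli2EKO. Krt71 was at 1100.0 and 7558 CPM in control and 846 and 3002 CPM in Gli2EKO. In IFE suprabasal-like cells Krt10, a keratin of the spinous layer, was at 9333 and 24335 CPM in positive and negative control cells and at 8650.4 and 22698 CPM in those of Gli2EKO. Other markers of that layer and the layers above it went the other way in control, where 9 of 16 were higher in positive cells. Of these 9, Dsc1, Flg2, Cdsn and Nccrp1 had log2 intervals that included 0. Ivl, which encodes involucrin of the cornified envelope, was at 163 and 36.6 CPM in positive and negative control cells and at 10.4 and 37.2 CPM in Gli2EKO. Lce1a1, of the late cornified envelope, was at 3121 and 1757 CPM in control and at 4.17 and 10.3 CPM in Gli2EKO. The value of 4.17 CPM rests on 4 UMIs, and the log2 interval in Gli2EKO, -3.22 to 0.13, included 0. Lce1b, lower there on 1 UMI in positive cells, also had an interval that included 0. In companion layer-like cells Krt79 was at 676 and 3395 CPM in control and at 1067 and 6334 CPM in Gli2EKO, whereas Klk10 was at 189.6 and 339.8 CPM in control and, higher in positive cells, at 297 and 178 CPM in Gli2EKO. In IFE basal-like cells Krt14, made throughout the basal layer, differed less, at 14582 and 17229 CPM in control and at 15662 and 19251 CPM in Gli2EKO.

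Cells with and without Lrig1, a stem cell marker of the upper follicle that restrains growth factor receptors, were compared at 5000 UMIs. Of follicle keratinocytes with a Lrig1 UMI, 48.9% (46.2 to 51.6) were G2/M-positive in control and 48.5% (44.8 to 52.3) in Gli2EKO. Of those without, 65.9% (63.0 to 68.8) and 60.4% (56.1 to 64.5) were. These shares pool the follicle classes, which differ in their G2/M-positive shares, so class and Lrig1 cannot be told apart in them. In upper follicle-like cells with a Lrig1 UMI the shares were 61.7% (53.8 to 69.2) and 76.5% (67.0 to 84.3). In those without, they were 54.2% (32.8 to 74.4) of 24 control and 82.1% (66.5 to 92.5) of 39 Gli2EKO cells. In the IFE the shares were 30.6% (24.9 to 36.8) and 28.2% (23.2 to 33.7) with a Lrig1 UMI and 26.2% (21.5 to 31.4) and 27.1% (23.5 to 31.0) without. Upper follicle-like cells with a Lrig1 UMI were 87.1% of the class in control and 72.3% in Gli2EKO. Over all keratinocytes Lrig1 was at 268 and 182 CPM, a log2 ratio of -0.55 (-0.60 to -0.51). The part of this difference in the comparison of cells with and without a Lrig1 UMI was not tested.

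Among the other cells, fibroblast-like cells were G2/M-positive in 20.8% (17.6 to 24.3) in control and 22.1% (18.3 to 26.3) in Gli2EKO. Their summed G2/M genes were at 1789 and 2107 CPM, a log2 ratio of 0.24 (0.20 to 0.27), and 4 G2/M genes and Ccne1 were at least 1.5-fold higher, against 3.46% of all genes. In dermal papilla-like cells, a class with few G2/M-positive cells, only 9 members had 50 UMIs over both libraries. Of these, 6 were at least 1.5-fold lower in Gli2EKO, against 5.84% of all genes. Genes this low can reach that limit through the library where they are higher, which can raise such a count. Melanocyte-like cells were positive for either set in 26.8% (17.6 to 37.8) of 82 control and 51.6% (38.6 to 64.5) of 62 Gli2EKO cells, at median depths of 7716 and 10147 UMIs before thinning. In that class 28 of 45 members with enough UMIs were at least 1.5-fold higher, against 6.76% of all genes. The UMI limit can raise this count in the same way, and members measured in the same cells are not independent. Immune-like cells were G2/M-positive in 59.7% (47.5 to 71.1) and 45.7% (28.8 to 63.4), on 72 and 35 cells. The endothelial-, Schwann- and smooth muscle/pericyte-like classes held at most 29 cells in a library and are not described.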

How the data were processed

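The deposited values were UMI counts per gene and cell, which the authors made with Cell Ranger 9.0.1 on GRCm39, 1 matrix per library. Read filters before counting were not given in the sources used here. Cells with over 1000 and under 8000 genes and under 15% mitochondrial UMIs were kept, as in the study. The 8% of cells with the highest Scrublet scores (scanpy 1.11.5) were removed per library, because the automatic threshold marked 0 control and 5 Gli2EKO cells. Cells were clustered in Seurat 5.3.0 (R 4.3.3; log-normalized counts, 2000 variable genes, 20 principal components, resolution 0.5) after integration of the libraries by an own implementation of Harmony. Keratinocytes were clustered again without 438 genes, the members, other cell cycle genes and genes correlated with them. Clusters were named from fixed markers, or by their leading genes.

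Shares were taken from cells thinned to 5000 UMIs, with exact Clopper-Pearson intervals, and ratios have conditional binomial intervals. For ratios of shares, these take positive cells as counts that the number of cells does not bound, and are too wide for high shares. CPM are UMIs summed over the cells of a class scaled to 1000000 UMIs. A gene was counted as 1.5-fold higher or lower if it had at least 50 UMIs in the 2 libraries together, and 0.5 UMIs were added to each library for such counts and for the medians of lists. Each genotype had a single library, so that the genotypes were compared by their values with no p-value, and the intervals cover counting only. Named in full were the 3 members with the highest and the 3 with the lowest log2 ratios and Mki67, Top2a, Pcna and Mcm5, and all 55 could be named. Of the other lists these were the G1 cyclins, the inhibitors, Foxm1, Mybl2, E2f1 and genes past 1.5-fold. Ordered lists of 2 values give control first and Gli2EKO second. Promoters and transcript lengths were read from GRCm39 with GENCODE M39, and 55 of 55 members matched. The steps were tested on simulated counts. The members and lists were chosen with earlier results of these data known.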

Additional observations from a re-analysis of the deposited data

Results flagged for a closer look

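The ratio of G2/M-positive shares, Gli2EKO over control, went in opposite directions in 2 follicle classes. It was 0.902 (95% counting interval 0.729 to 1.11) in matrix/progenitor-like cells and 1.28 (0.979 to 1.68) in upper follicle-like cells. Both intervals include 1, although the binomial intervals of the shares themselves are separate between the libraries in both classes. The ratio intervals are wide for such high shares, because they take positive cells as counts that the number of cells does not bound. The difference between these ratios was not tested, because each class was measured in 1 library per genotype.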

How the results depend on the processing

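Under the alternatives run, the ratio of G2/M-positive shares over all keratinocytes was 0.827 to 0.876 (0.845 as reported), and with clusters weighted to control proportions 0.949 to 1.04 (0.987). The S-only ratio was 0.976 to 1.25 (1.08), below 1 only with the limit at 10 UMIs. The class ratios were 0.871 to 0.927 in matrix/progenitor-like, 1.19 to 1.32 in upper follicle-like and 0.916 to 1.05 in inner root sheath-like cells. The S-only ratio of the matrix/progenitor-like class was 6.14 with the limit at 3 UMIs and 1.63 at 10 UMIs.

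The log2 ratio of the summed G2/M genes (-0.27) was -0.30 without doublet removal, -0.21 as the mean of single-cell CPM, -0.23 with mitochondrial, ribosomal protein and keratin genes left out of the total, and -0.082 with weighted clusters. That of the S genes (-0.29) was -0.34 with 15% of the cells removed as doublets, -0.25 as the mean of single-cell CPM, -0.24 with those genes left out and -0.069 with weighted clusters. Of the 2 members past 1.5-fold, 1 was counted without doublet removal, 1 with classes set cell by cell, 1 with those genes left out of the total and 0 with weighted clusters, and 3 members were counted with 15% of the cells removed. Weighting changes only the proportions of the clusters, and for the other settings the cause was not tested. The weighted CPM values, the class ratios and a run without an interfollicular cluster led by Atf3 were chosen after seeing the data. No paired analysis was possible because there was 1 library per genotype, and for the same reason no library could be left out.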
